A study of Mus musculus with 12 samples.

Results

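The core genes of the circadian clock were examined in whole liver RNA sequencing of the intragastric model of alcohol-associated steatohepatitis (ASH). The group held 10 of the 54232 genes counted, chosen by name as the activators (Arntl, Clock and Npas2) and repressors (Per1, Per2, Per3, Cry1, Cry2, Nr1d1 and Nr1d2) of the clock loop, and all 10 passed the filter on low counts. Livers came from male C57BL6/J mice with a labelled age of 8 weeks, among them 5 pair-fed (PF) and 7 alcohol-fed (AF) mice and 1 library per mouse. Through a gastric tube AF mice took a high-fat liquid diet with ethanol for 8 weeks, at a dose that rose to 27 g/kg/day and with 5 g/kg once a week as a binge, beside a solid diet rich in fat and cholesterol. PF mice were given a high-fat liquid diet of equal calories without ethanol. No transgene or deletion is named for either group. According to the study's methods, mice were killed between late morning and early afternoon on the day after the last binge, so each liver gives a single moment of the daily cycle. The time at which each mouse was killed and the light schedule of these mice are not given in the sources used here. A shift in the phase of the clock and a change in its amplitude therefore cannot be told apart in these livers. The p-values of group comparisons weigh a difference between PF and AF against the spread between mice of a group. Those of correlations test an association over the 7 AF livers.

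The clock is a feedback loop of transcription that runs in nearly every cell and takes about a day. ARNTL pairs with CLOCK, or with its close relative NPAS2, and switches on the Per and Cry genes, whose proteins return to block the pair. The same pair switches on Nr1d1 and Nr1d2, nuclear receptors that repress Arntl and Npas2, against the activating ROR receptors at the same DNA elements. In liver the loop sets the daily timing of glucose, lipid and bile acid metabolism, partly through the D-box binding factors DBP, TEF and HLF, and feeding time is a strong cue for it.

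The DNA elements of the loop were looked up in promoter windows of RefSeq (build GRCm38.p6), which run from 250 bases before to 50 bases after a start site. Of the 10 clock genes, 9 had at least 1 window and 13 windows were found in all, with none for Per2. Both strands were searched for the E-box CACGTG (bound by ARNTL pairs), the ROR element core TAGGTCA or TGGGTCA (bound by ROR and NR1D receptors) and the D-box TTANNTAA (bound by DBP, TEF and HLF). Among all 32851 windows of this kind, 7.15% held the E-box, 6.45% the ROR element core and 6.00% the D-box. The E-box was found in Cry1 and in Per1, the ROR element core in Arntl and the D-box in Per3, which held it at 2 places. No match overlapped another. A match is a string of letters and not a measured binding site, and a window without a match says only that these letters are not in it. The sequence is printed for these 4 genes, together with that of Nr1d1, whose groups did not overlap in these data. Each runs 5′ to 3′ along the strand of its gene, and capitals mark the match.
Per3, the 250 bases before the start, chr4:151044666-151044915, minus strand, D-boxes in capitals: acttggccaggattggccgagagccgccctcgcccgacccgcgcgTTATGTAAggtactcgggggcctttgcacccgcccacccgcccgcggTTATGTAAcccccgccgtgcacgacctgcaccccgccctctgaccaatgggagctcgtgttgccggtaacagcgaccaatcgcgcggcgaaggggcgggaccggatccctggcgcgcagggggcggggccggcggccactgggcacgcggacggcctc
Cry1, the 240 bases before the start, chr10:85185065-85185304, minus strand, E-box in capitals: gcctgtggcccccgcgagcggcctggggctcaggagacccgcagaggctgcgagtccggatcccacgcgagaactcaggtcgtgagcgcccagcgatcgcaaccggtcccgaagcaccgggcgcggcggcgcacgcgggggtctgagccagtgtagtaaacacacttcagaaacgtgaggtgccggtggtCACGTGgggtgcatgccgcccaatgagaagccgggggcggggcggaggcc
Per1, 30 bases around the match, chr11:69098771-69098800, plus strand, E-box in capitals: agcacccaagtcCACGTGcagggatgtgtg
Arntl, 30 bases around the match, chr7:113207529-113207558, plus strand, ROR element core in capitals: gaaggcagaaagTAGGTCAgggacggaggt
Nr1d1, the 250 bases before the start, chr11:98775378-98775627, minus strand, no match to these letters: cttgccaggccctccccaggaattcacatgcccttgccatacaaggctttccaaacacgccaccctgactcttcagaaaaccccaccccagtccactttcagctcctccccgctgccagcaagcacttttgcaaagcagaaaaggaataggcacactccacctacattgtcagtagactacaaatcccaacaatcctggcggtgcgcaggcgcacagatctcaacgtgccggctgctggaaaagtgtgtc

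Between 24129900 and 28594027 reads per PF library and between 25099033 and 30578639 per AF library were counted on genes. Counts were scaled to CPM, the count relative to library size, with TMM factors of 0.832 to 0.901 in PF and 0.880 to 1.36 in AF. Hepatocyte markers were abundant in every liver, with a summed level of 91865.5 to 133961 CPM in PF and 49411.9 to 101903 CPM in AF over the 5 of 6 listed genes analysed, of which 1 was lower in AF. Markers of other cells moved with the groups: the summed level was 541 to 677 CPM in PF and 697 to 1865 CPM in AF for Kupffer cells (3 of 4 genes higher), 8.14 to 27.5 and 29.1 to 444 CPM for recruited macrophages (3 of 5 higher), 36.7 to 103 and 77.4 to 186 CPM for stellate cells (3 of 5 higher), and 3.16 to 4.96 and 4.95 to 41.5 CPM for bile ducts (4 of 4 higher). Sinusoidal endothelium ran from 97.1 to 214 CPM in PF and from 120 to 210 CPM in AF (1 of 4 higher), and red blood cells from 126 to 174 and from 24.4 to 157 CPM (1 of 3 lower). No gene of the neutrophil (45.0 to 737 and 28.1 to 151 CPM), T cell (1.82 to 6.24 and 1.71 to 4.04 CPM) or B cell list (1.19 to 3.89 and 0.493 to 1.81 CPM) passed the test by edgeR at an adjusted p of 0.05. No listed marker was at 0 in all libraries. In whole liver, fewer cells of a type and less RNA per cell cannot be told apart, and the part of these cell types in the clock values was not tested.

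Some activators of the clock were higher and some repressors lower in AF compared to PF. Of the 3 activators, 2 were higher (Arntl and Npas2), and of the 7 repressors, 4 were lower (Nr1d1, Nr1d2, Per2 and Per3), by edgeR's quasi-likelihood test with Benjamini-Hochberg adjustment over all 14168 genes tested and a threshold of 0.05. Clock, Cry1, Cry2 and Per1 did not pass. In all, 6 of 10 clock genes were called, where 39.8% of all genes tested were called, 22% as higher and 17.8% as lower. The median log2 fold change was -0.63 over the 10 clock genes, 1.21 over the activators and -0.77 over the repressors, beside 0.04 over all genes tested. Every AF liver lay below every PF liver for 1 clock gene, Nr1d1, and for 9.49% of all genes tested. No clock gene had every AF liver above every PF liver, a pattern held by 8.2% of all genes tested. On library totals without TMM the calls over all genes were 6458 higher and 938 lower, and with an offset for GC content and length 2473 and 3181, beside 3116 and 2519 with TMM. Of the 10 clock genes, 2 were called higher and 1 lower on library totals, and 0 higher and 6 lower with that offset. The direction of Clock and of Cry1 turned with the processing, whereas Arntl and Npas2 stayed higher and Nr1d1, Nr1d2, Per1, Per2, Per3 and Cry2 stayed lower in value under each of the 8 alternatives that kept all libraries. With a term for the gap in the header numbers described below, Npas2, Per2 and Per3 lost their calls, while Clock passed as higher and Cry2 as lower.

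**Figure D1:**
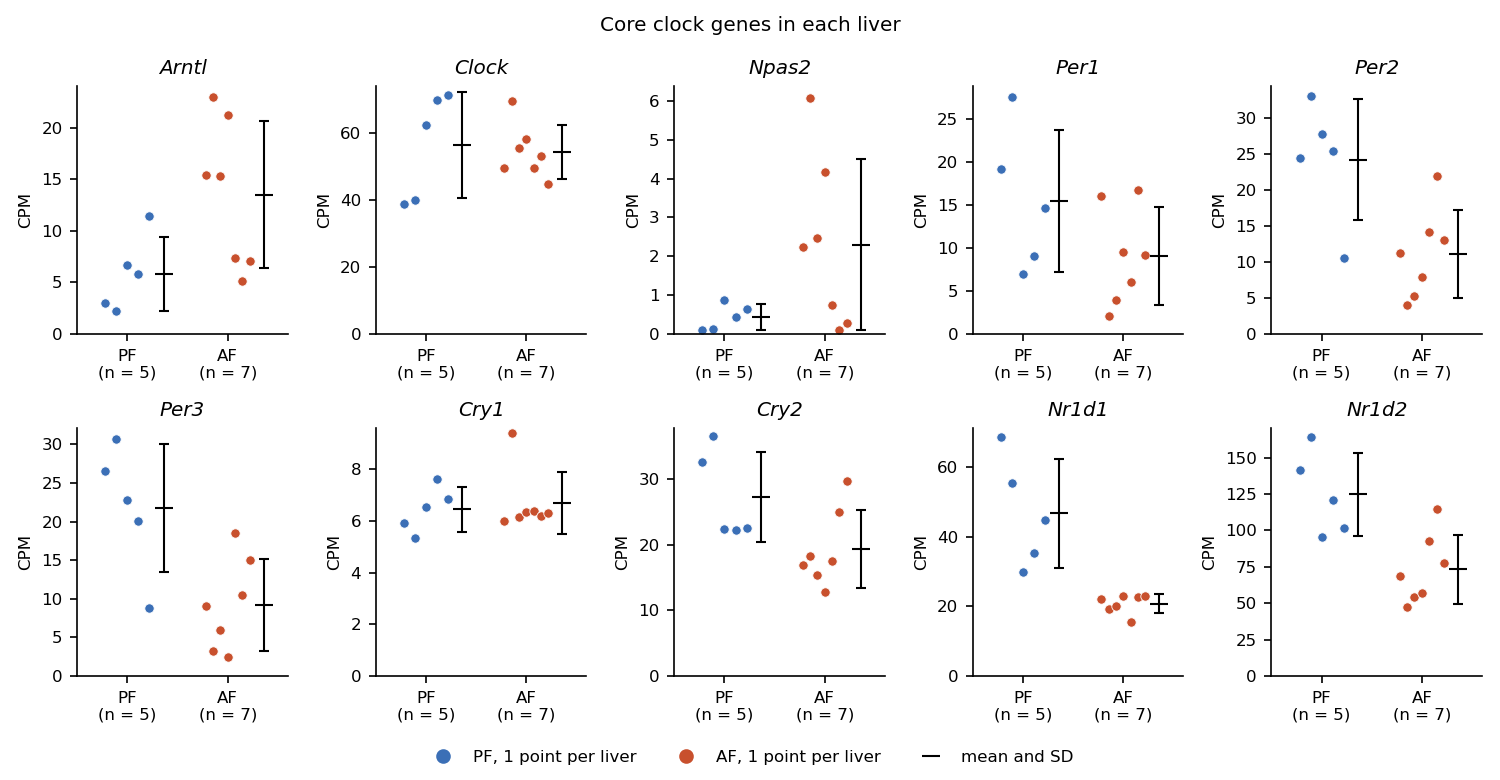
CPM of the 10 core clock genes in each liver, with PF in blue (5 livers) and AF in orange (7 livers). Each circle is 1 liver, and the bar to the right of each group is its mean and SD. For Nr1d1 the AF livers sit between 15.5 and 23.1 CPM, below every PF liver, while Arntl, Npas2, Per2 and Per3 overlap between the groups.

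Arntl (ENSMUSG00000055116, chr7:113207465-113314126, plus strand), the partner with which CLOCK or NPAS2 binds the E-box, was present at 3.05, 2.24, 6.67, 5.82 and 11.4 CPM in PF livers 1 to 5. In AF the lowest liver had 5.17, the median 15.3 and the highest 23.0 CPM. AF livers 1 to 4 lay above every PF liver, and AF livers 5 to 7 fell within the range of PF. The mean was 5.84 ± 3.62 CPM in PF (SD, n = 5) against 13.5 ± 7.14 CPM in AF (SD, n = 7), a 2.31-fold higher level (log2 fold change 1.21, SE 0.45, adjusted p = 0.0479 by edgeR). The two-sided exact permutation test of mean log2 levels, over all 792 splits of the livers, gave p = 0.0366. The call was lost without any 1 of AF livers 1 to 4 or PF livers 1 to 4, with adjusted p between 0.0203 and 0.106 and log2 fold changes between 1.00 and 1.59 over the 12 edgeR fits that each left out 1 library. It was also lost with RLE factors (adjusted p = 0.0510) and with the GC and length offset (adjusted p = 0.0508), in a range of 0.0139 to 0.0510 over 8 alternatives with all libraries.

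Npas2 (ENSMUSG00000026077, chr1:39193731-39363236, plus strand), which can stand in for CLOCK in the activator pair, was the least abundant clock gene. PF livers 1 to 5 had 0.0984, 0.137, 0.875, 0.433 and 0.633 CPM, from 2, 3, 21, 11 and 14 reads. In AF the level ran from 0.112 over a median of 2.23 to 6.08 CPM, which rests on 3 to 158 reads per liver. The livers that were high for Arntl were also high for Npas2: AF livers 1 to 4 lay above every PF liver, and AF liver 6 was the lowest AF liver for both genes. The mean was 0.435 ± 0.330 CPM in PF (SD, n = 5) against 2.29 ± 2.20 CPM in AF (SD, n = 7), and edgeR gave a log2 fold change of 2.37 (SE 0.86, adjusted p = 0.0422). The exact permutation test gave p = 0.0972, which is not past the threshold. Without any 1 of AF livers 1 to 4 or PF livers 1, 2, 4 and 5 the edgeR call was lost, with adjusted p between 0.0134 and 0.0937 over the 12 fits with 1 library left out, and it was lost with the GC and length offset (adjusted p = 0.0604, range 0.00801 to 0.0604 over 8 alternatives).

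Clock (ENSMUSG00000029238, chr5:76209868-76304792, minus strand), whose mRNA has little daily rhythm in liver, did not separate the groups. PF livers 1 to 5 had 38.8, 39.8, 62.3, 69.6 and 71.1 CPM, and AF livers ran from 44.7 over a median of 52.9 to 69.3 CPM. All AF livers were inside the range of PF. The log2 fold change was -0.06 (SE 0.17, adjusted p = 0.810 by edgeR), and an interval of 2 SE ran from -0.39 to 0.28. With a term for the gap in the header numbers described below, Clock passed as higher (log2 fold change 0.46, adjusted p = 0.0384 by edgeR).

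Nr1d1 (ENSMUSG00000020889, chr11:98767932-98775333, minus strand), which encodes REV-ERBα and represses Arntl, showed the clearest separation of the 10 genes. PF livers 1 to 5 had 68.6, 55.5, 29.8, 35.3 and 44.7 CPM, against a lowest of 15.5, a median of 22.2 and a highest of 23.1 CPM in AF. The groups did not overlap, and the AF livers lay closer together than the PF livers. The mean was 46.7 ± 15.6 CPM in PF (SD, n = 5) against 20.8 ± 2.75 CPM in AF (SD, n = 7), 2.25-fold lower in AF (log2 fold change -1.17, SE 0.18, adjusted p = 0.000438 by edgeR). The exact permutation p of 0.00126 is the smallest that 792 splits can give. The call held in all 12 edgeR fits with 1 library left out (adjusted p 0.000235 to 0.00177) and under each of the 8 alternatives. Nr1d1 shares 263 exon bases with Thra on the opposite strand. Thra had 2514 reads in all libraries beside 5204 reads in PF and 4559 in AF for Nr1d1. The strand setting of the counting is not given in the sources used here. Whether reads of the shared stretch were assigned to a gene or left out is therefore not known.

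Nr1d2 (ENSMUSG00000021775, chr14:18204054-18239127, minus strand), the gene of the related receptor REV-ERBβ, was also lower. PF livers 1 to 5 had 142, 164, 95.7, 121 and 102 CPM, and AF livers ran from 47.6 over a median of 68.4 to 115 CPM. AF liver 6 was the single AF liver inside the range of PF. The mean level fell from 125 ± 28.5 CPM in PF (SD, n = 5) down to 73.2 ± 23.8 CPM in AF (SD, n = 7), 1.71-fold lower (log2 fold change -0.77, SE 0.21, adjusted p = 0.0124 by edgeR; exact permutation p = 0.0114). The call held in all 12 fits that left out 1 library (adjusted p 0.00206 to 0.0401) and was lost on library totals, which moved the median of all genes by 0.36 (log2 fold change -0.43, adjusted p = 0.0636, a difference of -0.83 from the median gene).

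Among the Per genes, whose proteins carry the CRY repressors to the activator pair, Per2 and Per3 were lower in AF and Per1 was not past the threshold. For Per2 (ENSMUSG00000055866, chr1:91415982-91459324, minus strand) PF livers 1 to 5 had 24.5, 33.0, 27.8, 25.4 and 10.5 CPM, and AF livers ran from 4.00 over a median of 11.3 to 22.0 CPM. PF liver 5 was at the level of the AF livers, and 3 AF livers lay below every PF liver. The mean was 24.3 ± 8.35 CPM in PF (SD, n = 5) against 11.1 ± 6.15 CPM in AF (SD, n = 7), 2.19-fold lower (log2 fold change -1.13, SE 0.37, adjusted p = 0.0287 by edgeR; exact permutation p = 0.0240). Without AF liver 3 or 4 or PF liver 2, 3 or 4 the edgeR call was lost, with adjusted p between 0.00614 and 0.0744 over the 12 such fits, as it was on library totals (adjusted p = 0.0622, range 0.00663 to 0.0622 over 8 alternatives).

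Per3 (ENSMUSG00000028957, chr4:151003652-151044665, minus strand), the Per gene with the D-boxes shown above, had 26.6, 30.7, 22.8, 20.1 and 8.78 CPM in PF livers 1 to 5. AF livers ran from 2.44 over a median of 9.07 to 18.5 CPM. PF liver 5 was again the lowest PF liver, and 3 AF livers lay below it. The mean was 21.8 ± 8.30 CPM in PF (SD, n = 5) against 9.25 ± 5.96 CPM in AF (SD, n = 7), 2.35-fold lower (log2 fold change -1.23, SE 0.45, adjusted p = 0.0417 by edgeR; exact permutation p = 0.0316). The call was lost without any 1 of AF livers 1 to 4 or PF livers 1 to 4 (adjusted p 0.0179 to 0.09996 over the 12 edgeR fits) and on library totals (adjusted p = 0.0950, range 0.00877 to 0.0950 over 8 alternatives). Per3 lies within the span of Camta1 on the same strand, with 0 exon bases shared.

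Per1 (ENSMUSG00000020893, chr11:69095217-69109960, plus strand), which also responds quickly to glucocorticoids and cAMP, had 19.2, 27.6, 7.00, 9.12 and 14.6 CPM in PF livers 1 to 5 and 2.04 to 16.7 CPM in AF, with a median of 9.22. Both groups were widely spread and overlapped. The log2 fold change was -0.77 (SE 0.47, adjusted p = 0.201 by edgeR), with an interval of 2 SE from -1.70 to 0.16 that includes the size seen for Per2 and Per3. With the GC and length offset Per1 passed the edgeR threshold (log2 fold change -1.24, adjusted p = 0.0416, range 0.0416 to 0.491 over 8 alternatives). The log2 fold change was smaller on library totals (-0.39, adjusted p = 0.491) and without PF liver 2 (-0.46, adjusted p = 0.478), and neither passed.

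The cryptochromes, the direct blockers of the activator pair, gave different pictures. Cry1 (ENSMUSG00000020038, chr10:85131700-85185064, minus strand) had 5.91, 5.35, 6.54, 7.63 and 6.83 CPM in PF livers 1 to 5 and 6.01 to 9.39 CPM in AF, with a median of 6.30. AF liver 2 stood alone at the top and the other AF livers lay inside the range of PF. Its log2 fold change was 0.05 (SE 0.14, adjusted p = 0.805 by edgeR), with an interval of 2 SE from -0.23 to 0.33.

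Cry2 (ENSMUSG00000068742, chr2:92403646-92434043, minus strand) had 32.7, 36.6, 22.5, 22.3 and 22.5 CPM in PF livers 1 to 5 and ran from 12.8 over a median of 17.6 to 29.7 CPM in AF. AF livers 6 and 7 lay among the PF livers and the other 5 lay below every PF liver. The log2 fold change was -0.50 (SE 0.21, adjusted p = 0.0703 by edgeR), with an interval of 2 SE from -0.91 to -0.08, and the exact permutation p was 0.0556. Cry2 passed the threshold without AF liver 6 or AF liver 7, with adjusted p between 0.0169 and 0.191 over the 12 fits with 1 library left out. It passed under 4 of the 8 alternatives with all libraries, in a range of adjusted p from 0.00225 to 0.393 by edgeR, DESeq2 or limma. A processed transcript on the opposite strand, D930015M05Rik, shares 295 exon bases with Cry2 and had 3 reads in all libraries.

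The balance within a liver was read as the mean log2 CPM of the 3 activators minus that of the 7 repressors, a ratio that the scaling of a library barely moves. PF livers 1 to 5 stood at -3.39, -3.59, -1.51, -1.94 and -1.19, and AF livers 1 to 7 at -0.40, 1.25, 0.31, 0.64, -1.24, -2.41 and -1.86. AF livers 1 to 4 lay above every PF liver and AF livers 5 to 7 lay among them. The mean was -2.33 ± 1.1004 (SD, n = 5) in PF and -0.53 ± 1.36 (SD, n = 7) in AF, a difference of 1.80 that is given as a description without a test. In 3 AF livers this value was above 0, and in no PF liver was it so. The value is not corrected for exon length, so 0 does not mean equal levels per kb of exon.

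Ratios of single genes were read in the same way. The log2 ratio of Arntl to Nr1d1, an activator to the repressor that acts on it, was -4.45, -4.57, -2.14, -2.58 and -1.96 in PF livers 1 to 5 and -0.52, 0.25, -0.39, -0.12, -1.06, -2.11 and -1.68 in AF livers 1 to 7. All AF livers but liver 6 lay above every PF liver, and the means differed by 2.33. Arntl to Per2 differed by 2.45 on the same log2 scale, with 4 AF livers above every PF liver, and Npas2 to Clock by 1.67, with 5 AF livers above and 1 below every PF liver. Within the Per family the log2 ratio differed by 0.33 for Per1 to Per2 and by -0.19 for Per3 to Per2, and the groups overlapped for both. Leaving out 1 library moved Per1 to Per2 to 0.019 without PF liver 3, 0.15 without PF liver 4, 0.63 without PF liver 5 and 0.18 without AF liver 1, and Per3 to Per2 between -0.31 without AF liver 5 and 0.026 without AF liver 4. Over all 21 pairs of repressors the size of the difference ran from 0.0929 to 1.46 with a median of 0.523, and Per3 to Cry1 differed most.

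**Figure D2:**
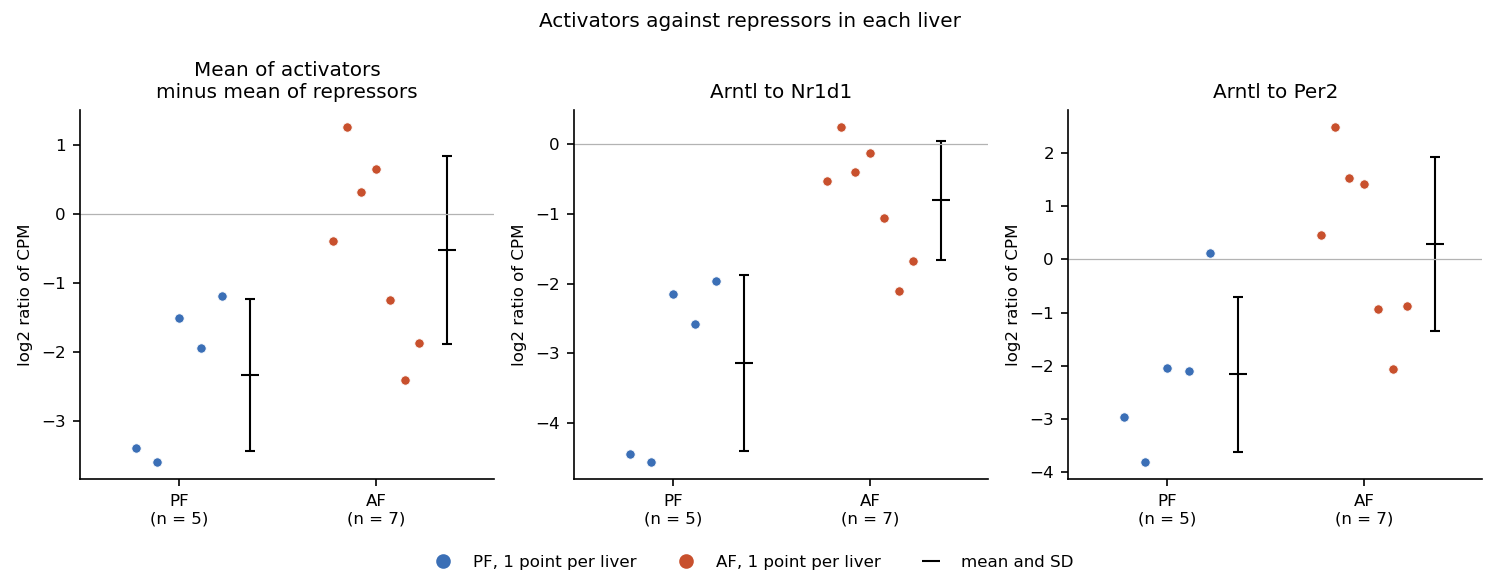
Log2 ratio of CPM in each liver for the mean of the 3 activators against the mean of the 7 repressors, for Arntl to Nr1d1 and for Arntl to Per2, with PF in blue, AF in orange, mean and SD at the right of each group, and a grey line at 0. CPM is not corrected for exon length here, so the line does not mark equal levels per kb of exon. In the first panel AF livers run from -2.41 to 1.25 and PF livers from -3.59 to -1.19, so the groups overlap.

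Within each group some livers moved together. AF livers 1 to 4 had the highest levels of Arntl and Npas2 in the group, and PF livers 1 and 2 were the lowest PF livers for Arntl, Npas2 and Clock and the highest for Per1, Per3, Cry2, Nr1d1 and Nr1d2. Markers of other cell types varied over the same AF livers. The summed recruited macrophage markers were at 444, 159, 250.5, 301, 59.8, 29.1 and 69.5 CPM in AF livers 1 to 7, the summed stellate cell markers at 151, 186, 157, 128, 142, 77.4 and 114 CPM, and the summed hepatocyte markers at 52049.6, 71697.9, 71300.2, 49411.9, 57871.3, 98255.5 and 101903 CPM. AF livers 1 to 4 held more of the macrophage markers than AF livers 5 to 7, whereas the summed stellate and hepatocyte levels of these livers overlapped. Col1a1, a collagen gene of the stellate list singled out after its values were seen, did not overlap between them, at 58.8, 53.3, 42.8, 31.6, 14.3, 6.18 and 13.6 CPM in AF livers 1 to 7. The other stellate genes (Lrat, Reln, Des and Acta2) each overlapped between these livers, and Reln was highest in AF liver 5, at 87.3 CPM. The part of these cells in the spread of the AF livers was not tested.

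The column names of the deposited table carry a further number, whose meaning is not given in the sources used here. Sorted by it, 3 PF livers (3 to 5) stand apart by a gap of 96, where no other gap between neighbours is over 23, and the other 2 PF livers and all 7 AF livers lie below the gap. The livers above it belong to PF alone, so a comparison of groups exists only below it, and this check was added after seeing the data. With the side of the gap as a term in edgeR, Nr1d1 was lower (log2 fold change -1.57, SE 0.16, adjusted p = 0.000100), as was Nr1d2 (-1.06, SE 0.26, adjusted p = 0.0137), and Arntl was higher (2.35, SE 0.61, adjusted p = 0.0178). Clock turned to a positive log2 fold change that passed the threshold (0.46, SE 0.15, adjusted p = 0.0384), and Cry2 passed as lower (-0.84, SE 0.24, adjusted p = 0.0248). The calls of Npas2 (4.22, adjusted p = 0.0573), Per2 (-1.38, adjusted p = 0.0574) and Per3 (-1.63, adjusted p = 0.0524) were lost, and Per1 (-1.37, adjusted p = 0.0875) and Cry1 (0.25, adjusted p = 0.343) did not pass. Among the livers below the gap the balance of activators and repressors differed by 2.96 and the log2 ratios of Arntl to Nr1d1 and Arntl to Per2 by 3.70 and 3.68, and these values rest on 2 PF livers. Of the genes around the loop, Ciart had a log2 fold change of -3.35 (adjusted p = 0.0101) and Dbp one of -2.16 (adjusted p = 0.0154) with the same term.

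Levels were compared between genes as CPM per kb of exon. In PF the order from high to low was Nr1d2 (23.1 ± 5.28, SD, n = 5), Nr1d1 (15.2 ± 5.07), Cry2 (4.32 ± 1.08), Per2 (4.14 ± 1.43), Clock (4.10 ± 1.16), Per1 (2.76 ± 1.47), Per3 (2.27 ± 0.864), Cry1 (1.93 ± 0.261), Arntl (0.776 ± 0.481) and Npas2 (0.0909 ± 0.0688). Neighbours in this order overlapped between mice except Nr1d1 and Cry2, Cry1 and Arntl, and Arntl and Npas2. In AF the receptors stayed on top, with Nr1d2 at 13.5 ± 4.41 CPM per kb (SD, n = 7) and Nr1d1 at 6.76 ± 0.895. Arntl, at 1.80 ± 0.949 CPM per kb, stood in place 7 in AF and in place 9 in PF, and Per3, at 0.963 ± 0.620, in place 9 and in place 7. In AF only Nr1d2 and Nr1d1 were neighbours in the order whose values did not overlap between mice.

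**Figure D3:**
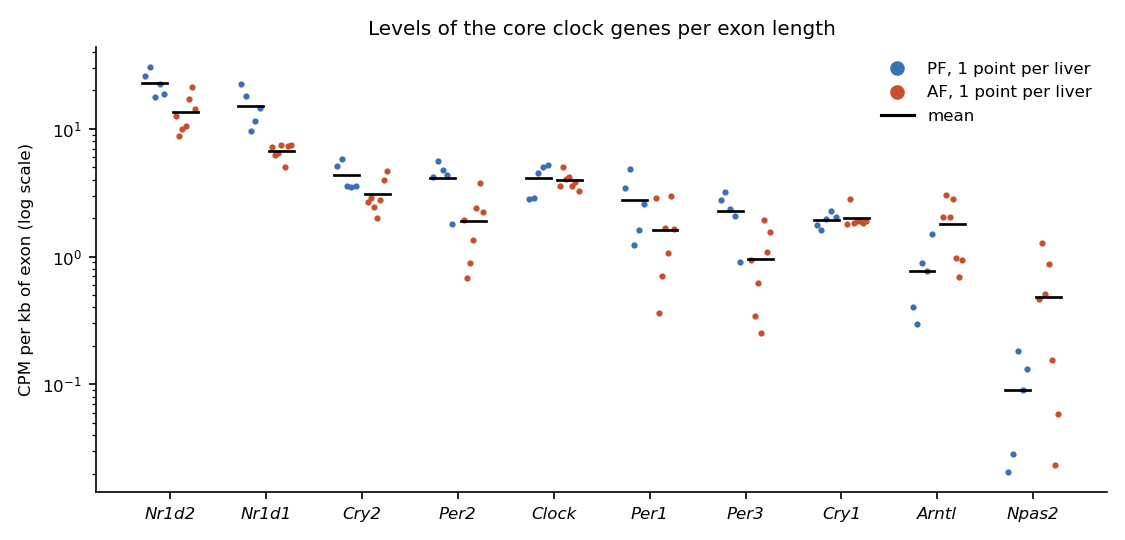
CPM per kb of exon (log scale) of the 10 clock genes in order of their PF mean, with 1 point per liver (PF blue, 5 livers; AF orange, 7 livers) and the mean as a black line. Nr1d2 and Nr1d1 sit highest in both groups and Npas2 lowest, with AF livers of Npas2 spread from 0.0233 to 1.27 CPM per kb.

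The spread between mice of a group was itself uneven over the clock genes. The SD of log2 CPM in AF was 1.82 for Npas2, 1.08 for Per1, 1.08 for Per3, 0.85 for Per2 and 0.84 for Arntl, which placed them between percentiles 92.6 and 99.6 of all genes tested. Clock (0.20), Nr1d1 (0.21) and Cry1 (0.22) lay between percentiles 27.8 and 33.1. In PF the SD was 0.48 for Nr1d1, at percentile 84.1, 0.43 for Clock, at percentile 80.4, and 0.19 for Cry1, at percentile 44.7. Nr1d1 and Clock thus both had a smaller spread in AF than in PF, Nr1d1 at a lower level and Clock without a call. In PF both genes split at the gap in the header numbers. PF livers 1 and 2 had 38.8 and 39.8 CPM of Clock, and PF livers 3 to 5 had 62.3, 69.6 and 71.1. For Nr1d1 the values were 68.6 and 55.5 against 29.8, 35.3 and 44.7 CPM. All AF livers lie below that gap, so group and gap cannot be told apart in the difference of spread. The highest AF liver exceeded the lowest 7.58-fold for Per3 and 54.4-fold for Npas2, the latter from 3 reads in the lowest liver, and 1.49-fold for Nr1d1.

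Other genes of the pathway were read from lists of 17 clock regulators, of which 16 could be tested, and 8 clock output genes. Of the regulators 4 were higher and 2 lower in AF, and of the output genes 0 were higher and 4 lower, by edgeR at an adjusted p of 0.05 over all genes, beside the 22% of all genes called higher and 17.8% called lower. The count of regulators called was near the share over all genes. The counts moved with the processing. With the GC and length offset 1 regulator was higher and 6 output genes were lower, beside 2473 genes higher and 3181 lower of 14157 tested. On library totals 7 regulators were higher and 2 output genes were lower, beside 6458 genes higher and 938 lower of 14168 tested. Each of these counts thus moved in the direction of the count over all genes. Among the output genes, Dbp, Tef and Hlf, which share the D-box, were lower together. Dbp had 60.1, 63.0, 21.3, 29.4 and 14.98 CPM in PF livers 1 to 5 and 3.93 to 25.5 CPM in AF, with a median of 9.23 (log2 fold change -1.45, SE 0.50, adjusted p = 0.0327). Both groups spread widely, with PF livers 3 and 5 among the AF livers, and the call was lost without AF liver 1, 3 or 4 or PF liver 1 or 2 (adjusted p 0.0207 to 0.0943 over the 12 edgeR fits). Hlf was below every PF liver in all 7 AF livers, at 53.2 ± 7.85 CPM in PF (SD, n = 5) against 25.3 ± 9.38 CPM in AF (SD, n = 7) (log2 fold change -1.07, SE 0.24, adjusted p = 0.00431). Tef fell from 159 ± 52.7 CPM in PF (SD, n = 5) down to 81.8 ± 38.0 CPM in AF (SD, n = 7), with a log2 fold change of -0.96 (SE 0.31, adjusted p = 0.0269) that was lost without AF liver 3 or PF liver 1 or 2 (adjusted p 0.0123 to 0.0836 over the 12 fits) and on library totals (adjusted p = 0.0518). Nampt, the rate-limiting enzyme of NAD salvage, was the other output gene called lower (log2 fold change -0.56, SE 0.15, adjusted p = 0.00973), and it lost the call on library totals (log2 fold change -0.22, adjusted p = 0.170, range 0.000826 to 0.170 over 8 alternatives). Nfil3, a repressor at the D-box, was at 34.8 ± 7.29 CPM (SD, n = 5) and 29.1 ± 11.6 CPM (SD, n = 7) and did not pass (log2 fold change -0.26, SE 0.26, adjusted p = 0.435).

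Ciart, a repressor of the activator pair, had the largest fold change of the regulators tested. PF livers 1 to 5 had 11.96, 22.2, 4.25, 3.19 and 2.17 CPM, and AF livers ran from 0.154 over a median of 1.503 to 6.07 CPM. AF liver 6 stood within PF and the other 6 lay below every PF liver. The log2 fold change was -2.38 (SE 0.75, adjusted p = 0.0227 by edgeR), and it was -1.68 (adjusted p = 0.0969) without PF liver 2 and -3.16 (adjusted p = 0.00244) without AF liver 6, within a range of 0.00244 to 0.0969 over the 12 fits. Bhlhe40, which competes for the E-box, fell from 174 ± 81.1 CPM in PF (SD, n = 5) down to 78.3 ± 22.3 CPM in AF (SD, n = 7), with a log2 fold change of -1.15 (SE 0.28, adjusted p = 0.00601). Its relative Bhlhe41 was low in both groups, at 2.38 ± 1.01 and 2.16 ± 0.783 CPM, and did not pass (log2 fold change -0.13, SE 0.29, adjusted p = 0.741).

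Rora, a receptor that opposes NR1D receptors, did not pass with edgeR, at 94.0 ± 17.7 CPM in PF (SD, n = 5) against 75.8 ± 16.6 CPM in AF (SD, n = 7) (log2 fold change -0.31, SE 0.16, adjusted p = 0.139 by edgeR). It passed with limma-voom (log2 fold change -0.47, adjusted p = 0.0126, range 0.0126 to 0.801 over 8 alternatives). Rorb was too low to be tested. Csnk1e, a casein kinase that marks PER proteins for degradation, rose in AF, where all 7 livers lay above every PF liver. Its mean was 5.14 ± 0.576 CPM in PF (SD, n = 5) and 10.2 ± 3.62 CPM in AF (SD, n = 7), with a log2 fold change of 0.99 (SE 0.22, adjusted p = 0.00406 by edgeR). Hdac3, the deacetylase recruited by NR1D receptors, rose by 0.29 on the log2 scale (SE 0.08, adjusted p = 0.0134) and Fbxw11, a ligase subunit for PER proteins, by 0.24 (SE 0.08, adjusted p = 0.0284). With the GC and length offset both lost the call (adjusted p = 0.0689 and 0.116, with ranges over 8 alternatives of 0.00135 to 0.0689 and 0.00451 to 0.116), and Fbxw11 also lost it with the filter on any count (adjusted p = 0.0642) and without PF liver 1, 2 or 5 (adjusted p 0.0157 to 0.0836 over the 12 edgeR fits). With the gap in the header numbers as a term Hdac3 lost its call as well (log2 fold change 0.16, adjusted p = 0.244). On library totals the log2 fold changes were 0.65 for Hdac3 and 0.61 for Fbxw11. Csnk1e kept its call under all 8 alternatives, with log2 fold changes from 0.57 (GC and length offset) to 1.41 (library totals). Csnk1d was also called higher (log2 fold change 0.22, adjusted p = 0.0442 by edgeR), a call lost with the GC and length offset, where 1 regulator was higher. Btrc (-0.18, adjusted p = 0.143, with 4 AF livers below every PF liver), Csnk1a1 (-0.04, adjusted p = 0.779) and Fbxl21 (0.13, adjusted p = 0.688) did not pass by edgeR.

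**Figure D4:**
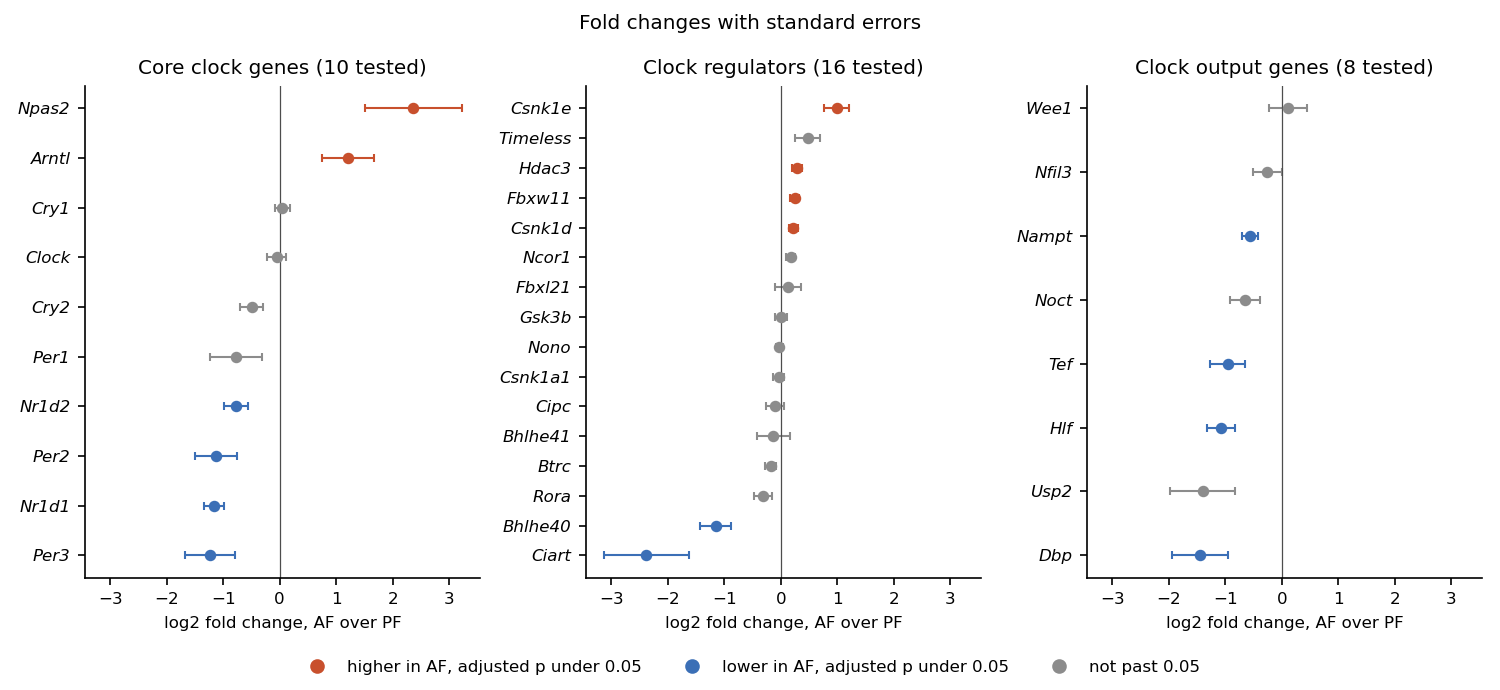
Log2 fold change of AF over PF from edgeR (points) with its standard error (bars) for the 10 core clock genes, the 16 clock regulators tested and the 8 clock output genes, coloured by direction where the adjusted p was under 0.05 and grey otherwise. Npas2 at 2.37 and Ciart at -2.38 are the largest changes shown, and each of the 4 output genes past the threshold lies to the left of 0.

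Genes whose level followed Arntl from mouse to mouse were listed by Pearson r of log2 CPM over the 12 livers after each group's mean had been taken out, among 11432 genes, as a description without a test. The points share library scaling, and the measure is weighted by AF livers 1 to 4, which were high for Arntl. It is also weighted by the PF livers on the 2 sides of the gap in the header numbers. Below the gap, PF livers 1 and 2 had 3.05 and 2.24 CPM of Arntl, and above it PF livers 3 to 5 had 6.67, 5.82 and 11.4 CPM. Most alike were Lnx2 (r = 0.935), Col1a1 (0.932), Ap5m1 (0.931), Nfkbie (0.924) and Tlr1 (0.918). Most opposite were Usp2 (-0.970), Dbp (-0.965), Osbpl2 (-0.954), Tef (-0.938) and Srrd (-0.928), so that 3 of these 5 are genes of the output list. Of the other clock genes in the comparison, Nr1d2 stood at -0.913, Per3 at -0.840, Per2 at -0.827, Cry2 at -0.805, Per1 at -0.543, Nr1d1 at -0.333, Cry1 at 0.582 and Clock at 0.786, and Npas2 was below the level of the comparison.

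For Nr1d1 the same measure gave H2afy (r = 0.942), Ap4m1 (0.934), Ulk1 (0.925), Rxrb (0.924) and Triobp (0.917) as most alike and Mtm1 (-0.948), Phactr2 (-0.936), Taok1 (-0.929), Alg10b (-0.919) and Mid2 (-0.915) as most opposite. None of these is a gene of the clock lists. Within groups Nr1d1 stood at -0.333 with Arntl, 0.315 with Nr1d2, -0.0289 with Per3, 0.0482 with Per2, 0.614 with Per1, 0.490 with Cry2, -0.439 with Cry1 and -0.640 with Clock. In each of the 7 AF livers Nr1d1 was between 15.5 and 23.1 CPM whether Arntl was high or low.

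**Figure D5:**
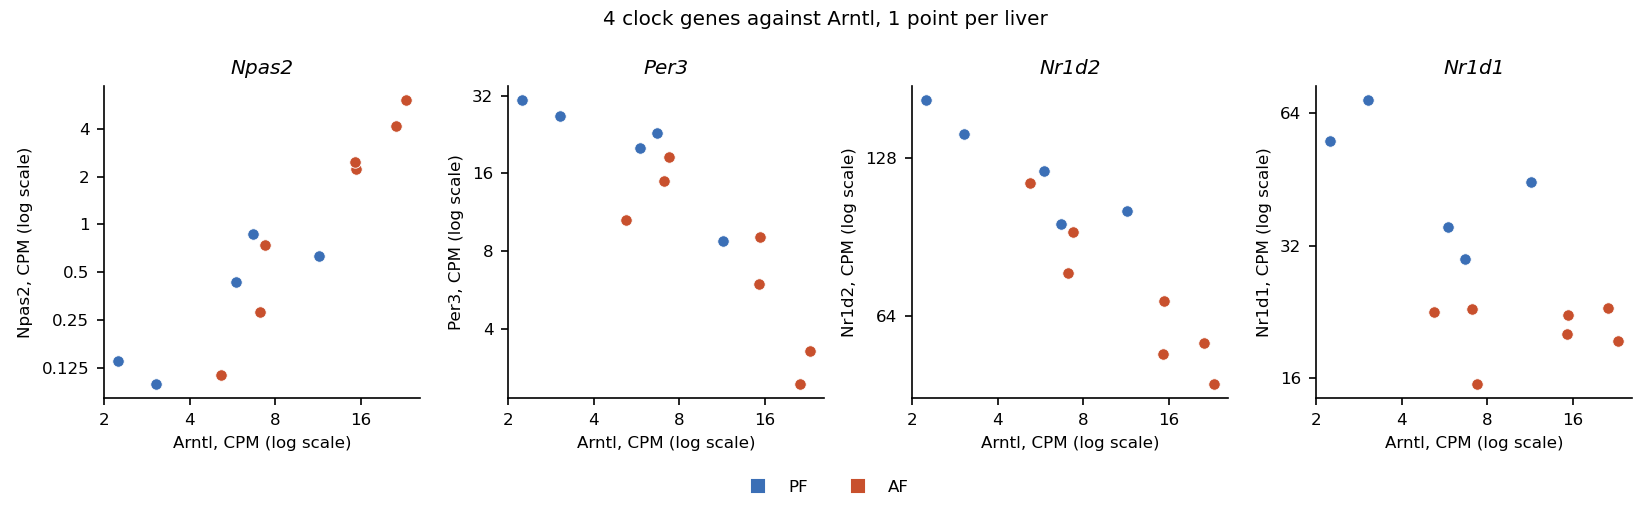
CPM of Npas2, Per3, Nr1d2 and Nr1d1 against CPM of Arntl, both on log scales, with 1 point per liver (PF blue, AF orange). Livers with more Arntl tend to hold more Npas2 and less Per3 and Nr1d2, whereas the 7 AF points of Nr1d1 form a flat band between 15.5 and 23.1 CPM. The tendency is read over both groups together and over AF livers that form separate clusters for Arntl, so it mixes these differences.

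Correlations within the AF group were computed for 7 pairs of clock genes. The 7 AF livers formed separate clusters for Arntl (4 at 15.3 CPM or more and 3 at 7.36 CPM or less), so no pooled r within AF is given for the 4 pairs with Arntl, which count only in the adjustment over 7 pairs. The r values with Arntl over all livers, listed above as a description without a test, pool these clusters as well. Per1 and Per2 had r = 0.824 (exact permutation p = 0.0238, adjusted p = 0.0556 over the 7 pairs, n = 7) and rho = 0.679 (exact permutation p = 0.110, adjusted p = 0.256). Without AF livers 2 and 3, the livers farthest from the median of Per1, r was 0.289, so the relation rests on those livers. Nr1d1 had r = -0.0649 with Nr1d2 (exact permutation p = 0.899, adjusted p = 0.913) and r = -0.319 with Per3 (exact permutation p = 0.511, adjusted p = 0.715). The corresponding rho values were 0.143 (exact permutation p = 0.783, adjusted p = 0.783) and -0.286 (exact permutation p = 0.556, adjusted p = 0.778), and without AF livers 2 and 5 r was 0.445 and 0.0521. All 7 AF livers lie on the same side of the widest gap in the header numbers. The next widest gap, of 23, parts them into the same clusters as Arntl does.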

How the data were processed

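Whole liver RNA of 5 PF and 7 AF mice was sequenced from stranded poly(A) libraries, and the values the authors deposited are counts of reads on each Ensembl gene, not normalized. The submitters' processing notes name FastQC 0.10.1, TopHat2 2.0.13, HTSeq 0.10.0 and GRCm38 (mm10); the annotation and strand setting of the counting are not given in the sources used here. Of 54232 gene IDs, 54165 were named through GENCODE M21. The clock genes and the other lists were chosen with earlier results of these data known. Libraries of a group differed by more than counting noise in all 31 pairs.

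Counts were scaled with TMM, filtered with filterByExpr and compared with edgeR's quasi-likelihood test (R 4.3.3, edgeR 4.0.16) without covariates, with Benjamini-Hochberg adjustment over 14168 genes. The step was tested on simulated data. Single clock genes were also compared by an exact two-sided permutation test of mean log2(CPM + 0.1). Named were all 10 clock genes, Ciart, Rora, Bhlhe40, Bhlhe41, Dbp, Tef, Hlf and Nfil3. Among the genes of the regulator and output lists not named so far, up to 3 of the largest changes past the threshold in each direction were added. The 5 genes most like and most opposite to Arntl and Nr1d1 (average log2 CPM 1 or more) were also named. Csnk1d, Btrc, Csnk1a1 and Fbxl21 are given beside Csnk1e. Alternatives were RLE factors, library totals, DESeq2 1.42.0, limma-voom (limma 3.58.1) with quality weights, looser and stricter filters (1 count in 1 library or more, or an average of 10 counts), the replicate number as a block, an offset for GC content and length, and each library left out. The results of 2 genes of the lists are not reported here. The gap in the header numbers was added as a term after seeing the data.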

Additional observations from a re-analysis of the deposited data

Results flagged for a closer look

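In 56 groups of values (22 named genes and 6 ratios, PF and AF apart) the highest or lowest liver was compared with the rest of its group by Dixon's test, which flags about 1 in 20 groups by chance, here 2.8 groups, and 3 stood out. Cry1 in AF liver 2, at 9.39 CPM, was separated from the next AF liver by a gap of 0.890 of the group's range. Ciart in AF liver 6, at 6.07 CPM, was separated by 0.764 of the range, and in this liver Arntl was the lowest and Per2 and Nr1d2 were the highest of the AF group. Bhlhe41 in AF liver 1, at 3.81 CPM, was separated by 0.696 of the range.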

How the results depend on the processing

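Nr1d1 kept its direction and its side of the threshold in all 8 alternatives with all libraries and in all 12 fits that left out 1, and Nr1d2 in all but 1. On library totals the genes called over the whole table were 6458 higher and 938 lower, the clock genes lower numbered 1, the clock regulators higher 7 and the clock output genes lower 2, with log2 fold changes of -0.81 for Per2, -0.89 for Per3 and -0.43 for Nr1d2 not past the threshold, and with the sign turned for Clock (0.30), Rora (0.067), Bhlhe41 (0.26) and Nfil3 (0.11). This setting raised the median of all genes by 0.36, and relative to the median gene Per2 stood at -1.21, Per3 at -1.29, Clock at -0.10 and Cry1 at 0.0017. With the GC and length offset 0 clock genes and 1 regulator were higher, beside 2473 of all 14157 genes tested. Under this offset Arntl (1.11) and Npas2 (2.10) were not past the threshold, Per1 (-1.24) and Cry2 (-0.84) were, and Clock (0.065) and Cry1 (-0.13) changed sign. RLE factors left 1 clock gene higher (Arntl 1.19, not past), beside 2989 of all 14168 genes tested. The filter on any count left 2 regulators higher, beside 3079 of all 26727 genes tested. Cry2 passed with DESeq2 (-0.52) and limma-voom (-0.55), Rora passed with limma-voom (-0.47), and limma-voom turned Cry1 (-0.014) and Bhlhe41 (0.029). The cause of these changes was not tested.

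Leaving out 1 library at a time gave 0 to 2 clock genes higher and 2 to 5 lower, 2 to 5 regulators higher and 1 to 2 lower, and 2 to 5 output genes lower. Over all 13953 to 14441 genes tested in these fits, 2519 to 3574 were higher and 2119 to 2923 lower. Log2 fold changes ran from 1.00 to 1.59 for Arntl, 1.89 to 2.78 for Npas2, -1.38 to -0.99 for Per2, -1.50 to -1.06 for Per3, -0.63 to -0.37 for Cry2, -0.17 to 0.038 for Clock, -0.075 to 0.11 for Cry1 and -0.33 to 0.087 for Bhlhe41. The difference in mean log2 CPM ran from -0.14 to 0.078 for Clock and from -0.040 to 0.11 for Cry1, and that of the log2 ratio of Per3 to Per2 from -0.31 to 0.026 and of Per1 to Per2 from 0.019 to 0.63. With the gap in the header numbers as a term, 1935 genes were higher and 1570 lower and 2 regulators were higher, Npas2 (4.22), Per2 (-1.38) and Per3 (-1.63) were not past the threshold, Cry2 (-0.84) was, and Clock changed sign (0.46), and below the gap the log2 ratio of Per1 to Per2 differed by -0.079. On library totals Per1 and Per2 correlated in AF at r = 0.84 (exact permutation, adjusted p = 0.0375, n = 7).

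The replicate numbers shared by PF and AF are not said to pair the mice. Deviations of same-numbered livers correlated at -0.0760 to 0.115 over 5 pairs, and 1 of 5 PF livers was closest to its own number. These values cannot decide whether mice were paired, since mice fed as a pair need not resemble each other in expression. With the replicate number as a block, 3395 genes were higher and 2940 lower, Cry2 passed the threshold (-0.73) and Clock changed sign (0.036). Npas2, with 51 reads in 5 PF livers, is the clock gene most limited by depth. No clock gene rests on fewer than 2 reads in a library.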
